A study of Rattus norvegicus with 4 samples.

Results

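Potassium channels are pores that let potassium leave or enter a cell along its gradient, and so set the resting voltage, end the action potential and limit firing. The genes described here are those of the deposited count table whose symbol begins with Kcn followed by a letter, and whose counts sum to 40 or more over the 4 libraries. The rule gave 57 genes of 21648 gene identifiers. The other 24 Kcn genes with a row were under that minimum, 5 of them with no count in any library. The member with the fewest counts was Kcnj2, with a sum of 50, and the gene nearest below the limit was Kcng4, with 33. Some channel genes of interest, among them Kcnd2, Kcnc1, Kcnc4 and Kcnab1, are not listed by that name in the table and were not analysed here.

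Gene expression was measured by RNA sequencing in cultured cortical cells of rat embryos of day 18, sold by a commercial supplier as cortical tissue and labelled as neurons. One group (2 libraries) was given the solvent DMSO and the other (2 libraries) was given topotecan, an inhibitor of topoisomerase I that the submitters used to lower the expression of long genes. Genotype, strain, dose and exposure time are not stated in the labels, and nothing says whether each library is a culture of its own. The p-values therefore rest on the spread between libraries of a group, and that spread may be technical.

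Most members code for pore-forming subunits. Voltage-gated pores (Kcna, Kcnb, Kcnc, Kcnd, Kcnh and Kcnq) open on depolarisation and shape the action potential and its pauses. Inward rectifiers (Kcnj) and the tandem pore domain channels (Kcnk) carry current near rest, and in astrocytes the inward rectifiers take up potassium released by active neurons. Other members code for pores opened by calcium or sodium inside the cell (Kcnma, Kcnn, Kcnt), for subunits that form no current alone but change their partners (Kcnf, Kcns, Kcnv), or for auxiliary proteins (Kcnab, Kcne, Kcnip, Kcnmb, Kcnrg).

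The libraries held between 22957786 and 31181382 gene counts, and replicates of a treatment differed by more than sampling noise (chi-square per degree of freedom 13 in DMSO and 9.34 in topotecan), so each was kept as 1 sample. Levels are CPM after TMM scaling. They are 1e6 times a gene's counts, divided by the product of the library's counts in tested genes and its TMM factor. They are not divided by transcript length, so they compare a gene between libraries and not 1 gene with another. The cultures held other cells than neurons. All 14 astrocyte markers were lower in topotecan. Their summed level was 6389 and 6495 CPM in DMSO, against 538 and 580 CPM in topotecan, and none was at 0 in both topotecan libraries. All 12 oligodendrocyte lineage markers were lower too, with summed levels of 4059 and 4367 against 136 and 123 CPM, and Sox10 was at 0 in both topotecan libraries. Of 8 tested progenitor markers 7 were lower, with sums of 385 and 361 against 13.0 and 12.3 CPM. Hes5 was at 0 in both topotecan libraries but was not tested, with under 20 counts in every library. Pan-neuronal markers summed to 37369 and 34803 against 41135 and 42286 CPM, with 3 of 23 lower and 7 higher (23.5% and 16.2% of all genes tested). Glutamatergic markers summed to 606 and 605 against 1132 and 1136 CPM, with 0 of 9 lower and 5 higher. Of that sum Neurod6 gave 340 and 367 against 829 and 829 CPM. None of the 9 microglial markers in the table reached 20 counts in any library. In bulk RNA, fewer cells of a type and less RNA per cell cannot be told apart.

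Potassium channel genes moved down far more often than up in topotecan. Of 57 members, all of them tested, 17 (29.8%) were lower and 2 (3.51%) were higher (adjusted p under 0.05 over all genes, edgeR's quasi-likelihood test with Benjamini-Hochberg adjustment). Over all 12162 genes tested, 23.5% were lower and 16.2% higher, so the share of falls lay near that of all genes and the share of rises below it, a difference that was not tested. With libraries scaled to 23 pan-neuronal genes, 23 members were lower and 0 higher, against 33.1% and 4.78% of all genes. No member was higher without topotecan replicate 1, and 1 was without topotecan replicate 2. The median log2 fold change of the members was -0.30, against -0.01 for all genes tested. Kcn counts summed to 566 CPM in both DMSO libraries and to 415 and 446 CPM in topotecan. The 3 genes Kcnj10, Kcnj16 and Kcne5 accounted for 56.2 and 53.9 CPM of the sum in DMSO and 0.131 and 0.159 CPM in topotecan. Without them the remaining 54 members summed to 510.0 and 513 against 415 and 446 CPM, and 14 of them were lower.

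**Figure D1:**
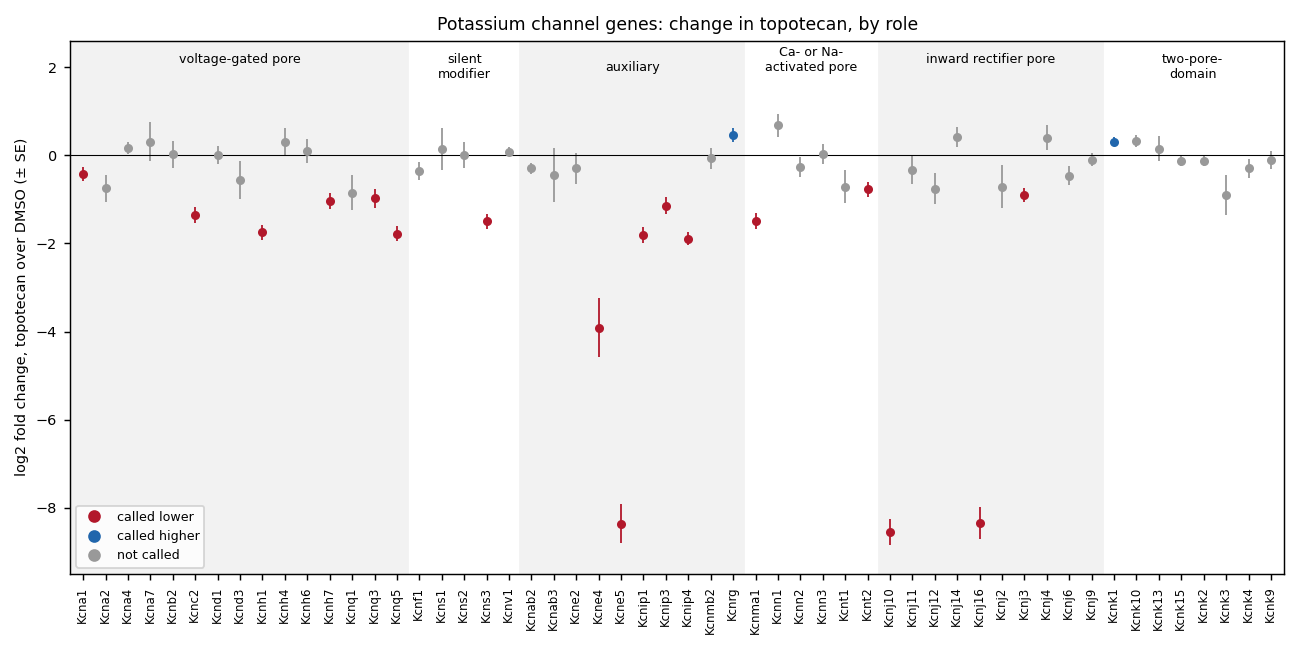
Log2 fold change of 54 of the 57 members in topotecan over DMSO (y axis, 2 libraries per group; bars are standard errors of the fit), grouped by role along the x axis; red points were called lower, blue points higher and grey points neither. Kcnj10, Kcnj16 and Kcne5 lie below -8, 13 other called falls lie between -0.43 and -1.89 with Kcne4 at -3.91, and the 2 called rises are at 0.31 and 0.46.

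The deepest falls were in genes for inward rectifiers of glia and for a small auxiliary subunit. Kcnj10 codes for the main inward rectifier of astrocytes and oligodendrocytes, and Kcnj16 for a subunit that joins it in mixed channels. Each has a neighbour of its own family in the genome, with no other protein-coding gene starting between them in the RefSeq annotation of GRCr8. Kcnj9 lies 14.2 kb from Kcnj10, and Kcnj2 lies 39.5 kb from Kcnj16. The 250 bases before the RefSeq gene start of Kcnj10, Kcnj9, Kcnj2 and Kcne5 are given because Kcnj10 and Kcne5 fell to a few counts while the neighbours Kcnj9 and Kcnj2 did not pass the test. The window listed for Kcnj16 begins at a start 28 kb inside the gene and is not shown. They are written 5′ to 3′ on the gene's strand, with capitals for every match, on either strand, to the motifs TATAAA (the TATA element), GGGCGG (bound by Sp factors), CCAAT (bound by the factor NF-Y) and AACAAT (bound by SOX factors).
Kcnj10, GRCr8 chr13:87334260-87334509, plus strand: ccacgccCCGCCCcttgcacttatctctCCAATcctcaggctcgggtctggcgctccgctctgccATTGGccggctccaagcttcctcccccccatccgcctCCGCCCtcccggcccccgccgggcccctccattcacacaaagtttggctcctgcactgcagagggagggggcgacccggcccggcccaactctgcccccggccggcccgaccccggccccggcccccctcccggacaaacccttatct
Kcnj9, GRCr8 chr13:87320294-87320543, minus strand: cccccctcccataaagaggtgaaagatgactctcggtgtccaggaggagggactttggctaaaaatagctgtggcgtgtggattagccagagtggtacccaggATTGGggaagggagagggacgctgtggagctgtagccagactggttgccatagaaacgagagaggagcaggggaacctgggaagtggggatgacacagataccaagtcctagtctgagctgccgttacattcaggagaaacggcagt
Kcnj2, GRCr8 chr10:96559975-96560224, plus strand: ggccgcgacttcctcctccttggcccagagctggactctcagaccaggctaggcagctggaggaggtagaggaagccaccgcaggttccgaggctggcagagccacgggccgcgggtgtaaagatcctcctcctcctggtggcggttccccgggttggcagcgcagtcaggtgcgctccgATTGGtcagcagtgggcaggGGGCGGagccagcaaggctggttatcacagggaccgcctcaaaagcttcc
Kcne5, GRCr8 chrX:110727850-110728099, minus strand: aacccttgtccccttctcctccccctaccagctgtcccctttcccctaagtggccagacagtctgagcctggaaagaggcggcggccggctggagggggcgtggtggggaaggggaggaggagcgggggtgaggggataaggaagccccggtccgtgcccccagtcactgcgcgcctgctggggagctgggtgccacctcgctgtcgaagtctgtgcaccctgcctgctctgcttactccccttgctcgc

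Kcnj9 and Kcnj10 are read in opposite directions, away from each other, whereas Kcnj16 and Kcnj2 are read in the same direction. The windows differed in base composition. G and C made up 72.4% of the Kcnj10 window, 54.8% of that of Kcnj9, 66.0% of that of Kcnj2 and 67.6% of that of Kcne5. The dinucleotide CpG occurred 20 times before Kcnj10, 6 times before Kcnj9, 14 times before Kcnj2 and 12 times before Kcne5. GGGCGG matched 2 times before Kcnj10 and 1 time before Kcnj2, and occurs in 24.9% of 19031 RefSeq windows of that length that end at a gene's start, 1 per gene. CCAAT matched 2 times before Kcnj10 and 1 time each before Kcnj9 and Kcnj2 (34.3% of all windows). Neither TATAAA (15.3%) nor AACAAT (12%) was found in these 4 windows, and none of the 4 motifs was found in that of Kcne5. Kcnj10 and Kcne5 thus had no motif of these 4 in common. Of the 57 members 34 had a window and 14 one that ends at the gene's start, with a median of 65.4% G and C and 13 CpG dinucleotides, against 49.2% and 4 over all such windows. The latter were not limited to genes tested here, whereas the members had passed a count minimum. Whether the difference is particular to potassium channel genes was not tested.

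Kcnj10 (ENSRNOG00000007705) stood at 26.0 and 31.2 CPM in the DMSO libraries and 0.0653 and 0.0793 CPM in the topotecan libraries. Its counts summed to 1446 in DMSO and 4 in topotecan, 397-fold lower, and the exact 95% interval of that ratio ran from 155 to 1457. Kcnj16 (ENSRNOG00000004713) stood at 14.1 and 12.2 CPM in DMSO and 0.0326 and 0.0397 CPM in topotecan. It had 1 count in each topotecan library, a 369-fold difference (interval from 102 to 3054). Intervals cover counting error only. The log2 fold changes were -8.55 (SE 0.29, edgeR adjusted p = 2.6e-11) and -8.34 (SE 0.36, edgeR adjusted p = 3.1e-10). Both genes thus had a clear level in DMSO and next to none in topotecan, in the same libraries in which the astrocyte marker Aqp4 fell from 522 and 587 to 0.261 and 0.476 CPM. The part of the glial loss in these falls was not tested.

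The neighbours did not pass the test. Kcnj9, a neuronal subunit of channels opened by G proteins, stood at 11.2 and 10.8 CPM in DMSO and 9.62 and 10.9 CPM in topotecan, and the groups overlapped. Its log2 fold change was -0.10 (SE 0.15, edgeR adjusted p = 0.627). Kcnj9 overlaps Igsf8 in the RefSeq annotation, which rose by 0.58 (SE 0.16), and no source used here says whether the counting used strand, so reads of the pair may be shared. Kcnj2, a classical inward rectifier, had few counts, 15 in each DMSO library and then 9 and 11 under topotecan (log2 fold change -0.71, SE 0.48, edgeR adjusted p = 0.269).

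**Figure D2:**
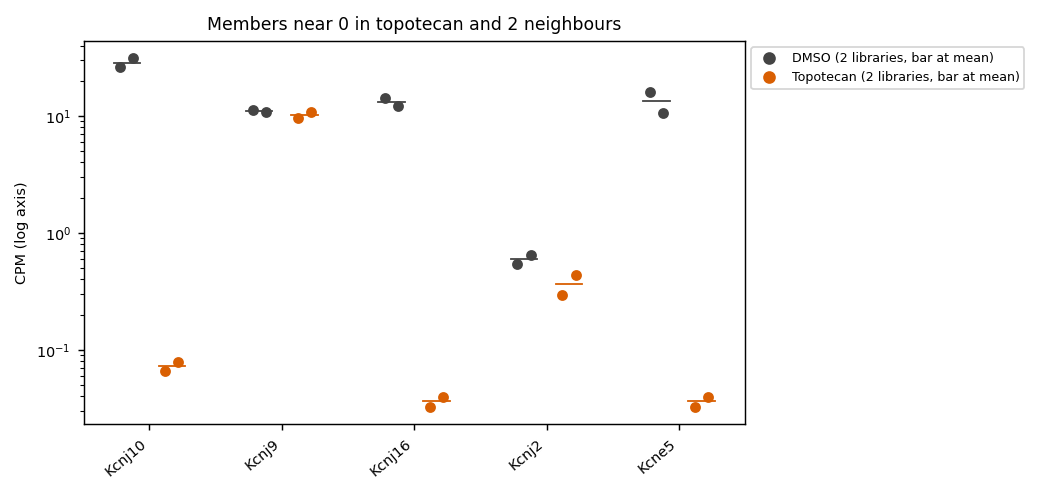
Level in CPM (y axis, log axis) of Kcnj10, Kcnj16 and Kcne5 and of the neighbours Kcnj9 and Kcnj2 in each library, with DMSO in grey and topotecan in orange; points are libraries and bars are means of 2. The topotecan points of Kcnj10, Kcnj16 and Kcne5 lie under 0.1 CPM, while those of Kcnj9 lie at 9.62 and 10.9 CPM and overlap DMSO.

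Kcne5 belongs to the Kcne family of small membrane subunits that change the gating of voltage-gated pores, and it too fell to a few counts. Its levels were 16.1 and 10.5 CPM in DMSO and 0.0326 and 0.0397 CPM in topotecan. The counts summed to 689 and 2, a 378-fold difference (interval from 104 to 3127), with a log2 fold change of -8.36 (SE 0.44, edgeR adjusted p = 2.7e-09). At 0.616 kb it is the shortest gene of the 57. Kcne4, of the same family, had 36 counts in each DMSO library and 0 and 5 in topotecan, a 15.8-fold difference (interval from 6.46 to 50.1; log2 fold change -3.91, SE 0.66, edgeR adjusted p = 3.7e-04). Its size rests on few counts. Leaving out topotecan replicate 1, the library at 0, gave a log2 fold change of -2.80, and leaving out replicate 2 gave -8.27, which is set against a lone library at 0 and depends on the prior count. Kcne2 was the third tested member of the family and did not pass, with 1.12 and 1.07 CPM in DMSO and 1.04 and 0.714 CPM in topotecan. The astrocyte and oligodendrocyte lists fell in these libraries, and their part in the falls of Kcne5 and Kcne4 was not tested.

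Of the 10 inward rectifiers 3 were lower and none higher (23.5% and 16.2% of all genes tested). The third was Kcnj3. Kcnj3 and Kcnj6 code with Kcnj9 for the channels that G protein βγ subunits open in neurons. Kcnj3 had 17.3 and 20.6 CPM in DMSO and 9.07 and 11.3 CPM in topotecan, without overlap (log2 fold change -0.90, SE 0.16, edgeR adjusted p = 4.2e-04). Kcnj6 had 4.24 and 5.27 CPM in DMSO and 3.26 and 3.65 CPM in topotecan, also without overlap, and did not pass (-0.46, SE 0.21, edgeR adjusted p = 0.0937). The ratio of Kcnj3 to Kcnj9 counts was 1.55 and 1.90 under DMSO, against 0.942 and 1.03 under topotecan. For 2 against 2 libraries the exact permutation test of such a ratio cannot go below its value here, p = 0.333 (2-sided). The remaining rectifiers were low and did not pass. Kcnj11, the pore of the channel closed by ATP, was at -0.34 (SE 0.32), Kcnj12 at -0.76 (SE 0.35), Kcnj4 at 0.40 (SE 0.28) and Kcnj14 at 0.41 (SE 0.23).

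All 3 members of the Kcnip family were lower (23.5% of all genes tested). Kcnip1 and Kcnip4 span 369 and 1151 kb, and 60.6% of all genes of 200 kb or more were lower. Their products are calcium-binding proteins that sit on the pores of the Kcnd family, raise their number at the surface and alter their inactivation. Kcnip4 fell from 19.7 and 18.7 CPM in DMSO to 5.19 and 5.16 CPM in topotecan (log2 fold change -1.89, SE 0.15, edgeR adjusted p = 2.1e-07). Kcnip1 fell from 11.1 and 8.99 CPM to 2.84 and 2.89 CPM (-1.81, SE 0.19, edgeR adjusted p = 4.0e-06). Kcnip3, whose product is also known as the transcriptional repressor DREAM, fell from 6.85 and 7.24 CPM to 3.49 and 2.86 CPM (-1.14, SE 0.19, edgeR adjusted p = 3.3e-04). The topotecan means of Kcnip4, Kcnip1 and Kcnip3 were 26.9%, 28.5% and 45.0% of the DMSO mean. For each of the 3 both topotecan libraries lay below both DMSO libraries, which follows largely from the call. Kcnip2, the remaining gene of the family in the table, had no count in any library.

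The Kcnd pores that these proteins bind did not pass. Kcnd1 had 8.23 and 7.11 CPM in DMSO and 6.30 and 9.28 CPM in topotecan, with overlapping groups (log2 fold change 0.01, SE 0.20). Kcnd3 had as few as 20 and 18 counts (DMSO) and 12 and 16 (topotecan) (-0.56, SE 0.44). Of the other partners of these pores, Dpp10 and Dpp6, which code for membrane proteins that speed their gating, fell. Dpp10 went from 35.8 and 36.8 to 4.40 and 4.08 CPM (-3.09, SE 0.14) and Dpp6 from 197 and 225 to 80.4 and 88.4 CPM (-1.32, SE 0.09).

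The Kcnq family carries the M-current, a slow current that holds neurons back from repeated firing and that muscarinic receptors shut off. Of its 4 members 2 were lower (23.5% of all genes tested). The 2, Kcnq5 and Kcnq3, span 566 and 301 kb, and 60.6% of all genes of 200 kb or more were lower. Kcnq5 fell from 11.2 and 12 CPM in DMSO to 3.65 and 3.09 CPM in topotecan (log2 fold change -1.78, SE 0.17, edgeR adjusted p = 2.2e-06). Kcnq3 fell from 4.02 and 4.28 CPM to 2.19 and 2.02 CPM (-0.98, SE 0.22, edgeR adjusted p = 0.00295). For both genes the topotecan libraries lay below both DMSO libraries, which follows largely from the call. Kcnq1, better known from heart and epithelia, had 27 and 21 counts (DMSO) and 16 and 13 (topotecan) and did not pass (-0.85, SE 0.40).

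Kcnc genes code for fast-closing pores, which allow rapid firing. Kcnc2, a gene of fast-spiking interneurons, fell from 8.34 and 9.08 CPM to 3.26 and 3.53 CPM (log2 fold change -1.36, SE 0.18, edgeR adjusted p = 4.0e-05). Both topotecan libraries lay below both DMSO libraries, which follows largely from the call. The gene spans 184 kb, and 31.6% of all genes of 100 to 200 kb were lower. Among 9 tested interneuron markers 3 were lower and 4 higher (23.5% and 16.2% of all genes tested). The 4 higher were Sst (log2 fold change 1.8, SE 0.11), Lhx6 (1.14, SE 0.23), Dlx1 (0.89, SE 0.15) and Npy (0.58, SE 0.16). Pvalb, the marker of many fast-spiking interneurons, fell from 2.97 and 2.66 CPM to 0 and 0.0397 CPM, and Gad1 (log2 fold change -0.43, SE 0.09) and Gad2 (-0.71, SE 0.13), which make GABA, were lower too. The summed level of the list was 513 and 460 CPM in DMSO and 709 and 606 CPM in topotecan, of which Sst, the marker of another interneuron class, gave 106 and 80.4 against 335 and 317 CPM. The part of a change in interneuron number or RNA in the fall of Kcnc2 was not tested.

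Of the 4 Kcnh genes, which code for relatives of the ether-a-go-go channel of flies, 2 were lower (23.5% of all genes tested). The 2, Kcnh1 and Kcnh7, span 303 and 493 kb, and 60.6% of all genes of 200 kb or more were lower. Kcnh1 fell from 13.0 and 15.1 CPM to 3.82 and 4.56 CPM (log2 fold change -1.75, SE 0.17, edgeR adjusted p = 2.2e-06). Kcnh7, an ERG-type channel of neurons, fell from 9.86 and 8.57 CPM to 4.05 and 5.04 CPM (-1.03, SE 0.18, edgeR adjusted p = 5.0e-04). Kcnh7 overlaps Gca in the annotation, which was itself lower (-0.50, SE 0.12). Kcnh4 and Kcnh6 were at 0.31 (SE 0.32) and 0.09 (SE 0.27) and did not pass.

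Of the 4 Kcna pores 1 was lower (23.5% of all genes tested), and by little. Kcna1, an axonal pore that limits spike number, had 12.8 and 12.8 CPM in DMSO and 8.45 and 10.6 CPM in topotecan (log2 fold change -0.43, SE 0.16, edgeR adjusted p = 0.0418). Its call was lost with topotecan replicate 1 left out (-0.27, edgeR adjusted p = 0.394), and DESeq2 gave an adjusted p of 0.107. Kcna2, its partner in axons, had 2.43 and 1.80 against 1.50 and 0.991 CPM and did not pass (-0.75, SE 0.31). Kcna4, which gives a fast-inactivating current, had 15.1 and 19.6 against 19.6 and 18.9 CPM (0.16, SE 0.14), and Kcna7 fewer than 22 counts in every library (0.31, SE 0.45). Kcnb2, a delayed rectifier, had 1.56 and 1.33 against 1.53 and 1.39 CPM, and the groups overlapped (0.02, SE 0.30). The β subunit genes Kcnab2 and Kcnab3, whose products attach to Kcna pores in the cytoplasm, did not pass at -0.30 (SE 0.12) and -0.45 (SE 0.62). Kcnab2 overlaps Nphp4 in the annotation, which did not pass (-0.11, SE 0.16), and reads of the pair may be shared. Kcnab3 had 33 and 24 counts in the libraries numbered 1 and 6 and 7 in those numbered 2, so its replicates stood further apart than the treatments.

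Of the 5 subunits that form no current alone 1 was lower (23.5% of all genes tested). Kcns3, which joins Kcnb pores, fell from 9.83 and 11.1 CPM to 3.85 and 3.49 CPM (log2 fold change -1.50, SE 0.17, edgeR adjusted p = 1.2e-05). Kcnv1, another modifier of Kcnb pores, had 66.4 and 57.7 CPM in DMSO and 62.7 and 68.6 CPM in topotecan, with overlap (0.08, SE 0.10). Kcnf1 was at -0.36 (SE 0.20), Kcns1 at 0.15 (SE 0.48) and Kcns2 at 0.00 (SE 0.30).

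**Figure D3:**
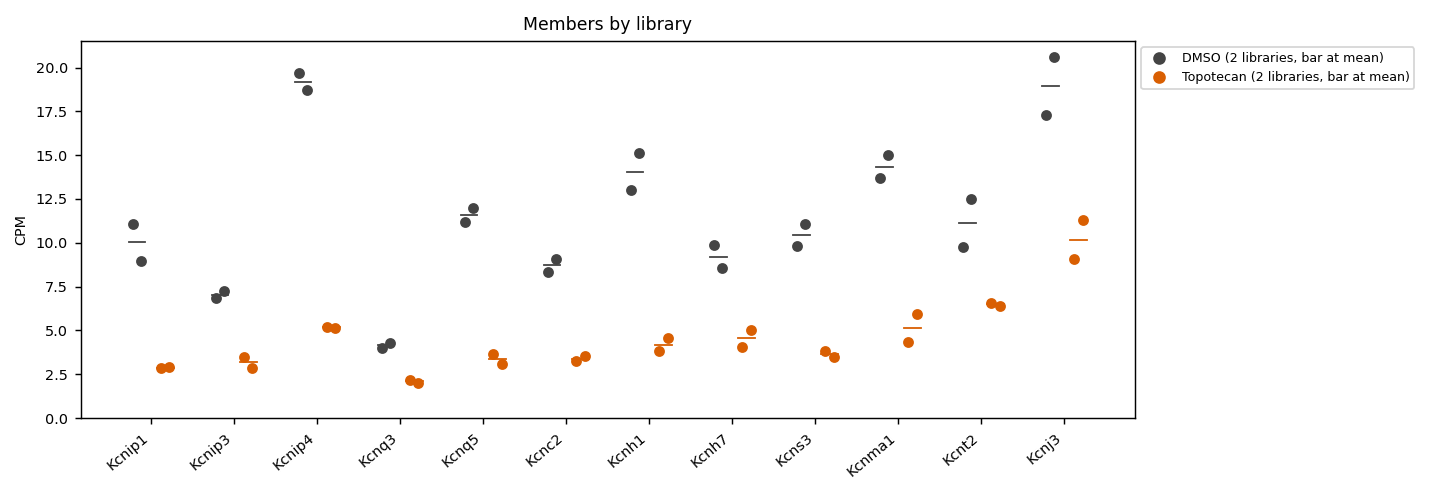
Level in CPM (y axis, from 0) of 12 members in each library, with DMSO in grey and topotecan in orange; points are libraries and bars are means of 2. All 12 were drawn from the members called lower, so the separation of the groups follows largely from that choice. Both topotecan points lie below both DMSO points for each gene drawn.

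Among pores opened by calcium or sodium, 2 of 6 were lower (23.5% of all genes tested). The 2, Kcnma1 and Kcnt2, span 706 and 395 kb, and 60.6% of all genes of 200 kb or more were lower. Kcnma1, the large-conductance channel opened by calcium and voltage together, fell from 13.7 and 15.0 CPM to 4.34 and 5.95 CPM (log2 fold change -1.49, SE 0.18, edgeR adjusted p = 1.5e-05). Its β subunit gene Kcnmb2 had 3.70 and 4.67 CPM in DMSO and 4.83 and 3.01 CPM in topotecan, with overlap (-0.07, SE 0.24). Kcnt2, a sodium-activated pore, fell from 9.75 and 12.5 CPM to 6.59 and 6.38 CPM (-0.77, SE 0.17, edgeR adjusted p = 0.00257). Kcnt1, its relative, had 30 and 28 counts (DMSO) and 25 and 14 (topotecan) and did not pass (-0.71, SE 0.38). The small-conductance channels Kcnn1, Kcnn2 and Kcnn3, which give the slow pause after a spike, did not pass at 0.68 (SE 0.26), -0.26 (SE 0.23) and 0.03 (SE 0.23). Kcnn1 came closest (edgeR adjusted p = 0.0535), with 2.18 and 1.46 CPM in DMSO and 2.84 and 3.05 CPM in topotecan, above DMSO in both libraries.

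The Kcnk genes, whose products are leak channels with tandem pore domains, had no called fall among 8 members (23.5% of all genes tested fell). Kcnk2 was called lower with libraries scaled to pan-neuronal genes (-0.34, edgeR adjusted p = 0.0443), and Kcnk4 without DMSO replicate 2 (-0.54, edgeR adjusted p = 0.043). Whether the family differs in this from the other members was not tested. Their counts summed to 143 CPM in both DMSO libraries and to 141 and 157 CPM in topotecan. Kcnk1, a weak leak channel, had 43.1 and 36.4 CPM in DMSO and 47.6 and 51.4 CPM in topotecan and was called higher (log2 fold change 0.31, SE 0.11, edgeR adjusted p = 0.0402). Kcnk2, a channel opened by stretch, heat and lipids, had 47.8 and 54.9 against 43.6 and 50.5 CPM, with overlap (-0.13, SE 0.11). Its close relative Kcnk10 had 14.2 and 15.9 against 17.4 and 20.5 CPM and did not pass (0.33, SE 0.14, edgeR adjusted p = 0.0762). Kcnk4, of the same branch, was at -0.30 (SE 0.21). The acid-sensitive channels Kcnk3 and Kcnk9 were at -0.90 (SE 0.45) and -0.11 (SE 0.21), Kcnk15 at -0.12 (SE 0.12) and Kcnk13 at 0.15 (SE 0.28). Kcnk15 overlaps Rims4 in the annotation, which did not pass (-0.33, SE 0.41), and reads of the pair may be shared.

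The second called rise was Kcnrg, which codes for a soluble protein that holds back the assembly of voltage-gated pores and is no channel itself. It had 14.1 and 19.1 CPM in DMSO and 23.2 and 22.2 CPM in topotecan (log2 fold change 0.46, SE 0.15, edgeR adjusted p = 0.0254). Both rises were small and not stable. Kcnk1 lost its call without DMSO replicate 2 (edgeR adjusted p = 0.137) or either topotecan library (0.0802 and 0.25), and Kcnrg without DMSO replicate 1 (0.115) or topotecan replicate 1 (0.086). With libraries scaled to pan-neuronal genes, which shifted the median of all genes from -0.01 to -0.22 on the log2 scale, neither passed (0.11 for Kcnk1 and 0.24 for Kcnrg). With the replicate number as a block, the edgeR adjusted p was 0.0562 for Kcnk1 and 0.0509 for Kcna1, and 16 members were lower and 1 higher.

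Gene span, the distance from a gene's start to its end in the RefSeq annotation of GRCr8, was not part of the rule that chose the members. The median span was 45.7 kb for the members and 26.0 kb for all genes tested, and 35.1% of members against 16.1% of genes spanned 100 kb or more. Of 20 members of 100 kb or more 10 were lower and none higher, where 43.5% of all genes of that span were lower and 6.06% higher. Of 37 shorter members 7 were lower and 2 higher, where 20.1% of all shorter genes were lower and 18.5% higher. The shares of falls lay near those of genes of like span. Among the 14 members of 200 kb or more 8 were lower and none higher (60.6% and 3.59% of all such genes), with a median log2 fold change of -0.91 against -0.65. Among the 24 members under 30 kb 3 were lower (17.7% of all such genes) and none higher, where 22.6% of such genes were higher. The 3 were Kcne5, Kcne4 and Kcna1. Over the 57 members span and log2 fold change had a Spearman's rho of -0.34, and -0.45 without Kcnj10, Kcnj16 and Kcne5, as a description over genes measured in the same 4 libraries. Over 11777 genes with a span it was -0.28.

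Members of like span were not all called alike. Kcnip4 (1151 kb), Kcnma1 (706 kb), Kcnq5 (566 kb), Kcnh7 (493 kb), Kcnt2 (395 kb), Kcnip1 (369 kb), Kcnh1 (303 kb) and Kcnq3 (301 kb) were lower. Kcnb2 (471 kb), Kcnn2 (440 kb), Kcnq1 (333 kb), Kcnmb2 (305 kb), Kcnj6 (247 kb) and Kcnd3 (217 kb) did not pass, and of these Kcnj6 and Kcnmb2 had the most counts, 432 and 435 in all. Kcnq1 (-0.85, SE 0.40) and Kcnd3 (-0.56, SE 0.44) had only 77 and 66 counts in all, so not passing does not show that they moved otherwise. Of the 6 members between 100 and 200 kb, Kcnj3 (164 kb) and Kcnc2 (184 kb) were lower and none higher, where 31.6% and 7.77% of all such genes were. In that class Kcnk2 (197 kb) and Kcnk10 (136 kb) were at -0.13 and 0.33. Of the 13 members between 30 and 100 kb 4 were lower and 2 higher (24.6% and 11% of all such genes), namely Kcnj10, Kcnj16, Kcnip3 (65.7 kb) and Kcns3 (56.7 kb) against Kcnk1 and Kcnrg. Depth limited the low members. Of 21 members with a mean under 3 CPM 1 was called, Kcne4. The median SE of these 21 was 0.35 against 0.18 for the other 36, so a change of moderate size could be missed in them.

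**Figure D4:**
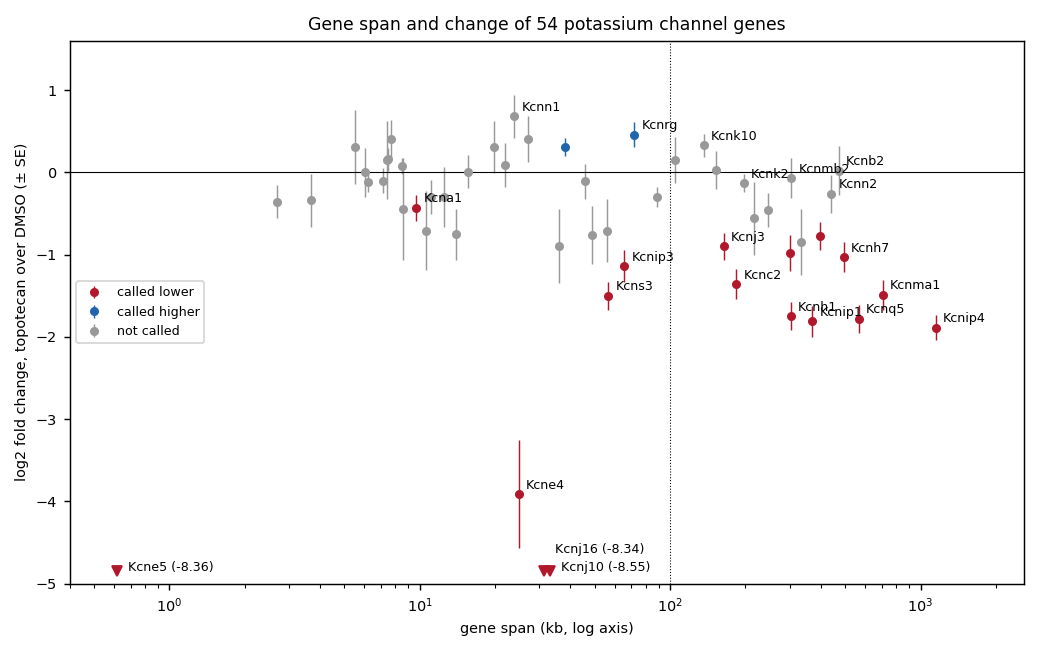
Log2 fold change in topotecan over DMSO (y axis, ± SE) against gene span in kb (x axis, log axis) for 54 of the 57 members, with calls by colour and a dotted line at 100 kb; the triangles at the lower edge are 3 genes off the scale, with their values. To the right of the line 10 of 20 genes were called lower and none higher, and Kcnk2, Kcnk10, Kcnmb2, Kcnn2 and Kcnb2 lie between -0.26 and 0.33 among them.

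Genes whose products bind, anchor or gate with potassium channels but are named otherwise were counted in the same way. Of 28 such genes 25 had a row and 18 were tested, of which 6 were lower and 1 higher (23.5% and 16.2% of all genes), with a median log2 fold change of -0.31 (-0.01 for all genes). Of the 6 falls 4 were in genes of 200 kb or more, where 60.6% of all genes were lower. Besides Dpp6 and Dpp10, the falls were in Cntnap2 (2257 kb, -4.41, SE 0.41), which gathers Kcna pores beside the node of Ranvier, in the scaffolds Dlg2 (2052 kb, -0.99, SE 0.11) and Dlg1 (191 kb, -0.59, SE 0.14), and in Abcc8 (81.3 kb, -0.41, SE 0.15), the sulfonylurea receptor that pairs with Kcnj11. Vapa, which tethers Kcnb pores to the endoplasmic reticulum, rose by 0.31 (SE 0.08). Amigo1, the Kcnb partner, and Lgi1, a secreted partner of Kcna pores, did not pass at 0.08 (SE 0.15) and -0.11 (SE 0.09). Nor did Hcn2, Hcn3 and Hcn4, relatives of the potassium channels that pass sodium as well.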

How the data were processed

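The authors deposited 1 table of raw gene counts for the 4 libraries, with Ensembl identifiers and symbols. Per the submitters' processing notes STAR and edgeR were used. Neither the build, the annotation, the counting tool nor the strand setting is named in the sources used. The library kit was one for small RNA, per the labels' protocols. The deposited transcript number per gene, a plain tally with no unit, was not used. The table's 22641 rows held 21648 identifiers, each counted once. Groups came from the sample titles.

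Topotecan was compared with DMSO by edgeR 4.0.16 (R 4.3.3; quasi-likelihood F-test, TMM, filterByExpr with minimum count 10 and total 15, treatment as the only term, with 2 residual degrees of freedom). Benjamini-Hochberg adjustment covered all 12162 genes, with a threshold of 0.05. SE is the fold change over the square root of F. The script was tested on simulated counts. Alternatives were DESeq2 1.42.0, limma-voom 3.58.1, other scalings, no filter, a replicate block and each library left out. Spans came from RefSeq, matched by Entrez number (53 members) or symbol (4), and promoter windows from RefSeq (GRCr8), used where they end at the gene's start. The named genes were to be any member; 3 members are counted but not reported by name or drawn here. Values in every library were planned for the most abundant and most changed of each subfamily and for a fixed list of channel genes. Members and lists were chosen with earlier results of these data known.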

Additional observations from a re-analysis of the deposited data

How the results depend on the processing

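Of the 19 called members 16 kept their direction and call in all 11 refits (3 scalings, no filter, DESeq2, limma-voom, the replicate block and 4 with a library left out). Kcna1, Kcnk1 and Kcnrg did not. No called member changed sign. Of the 38 uncalled members 11 passed in 1 or more of these refits. The count of lower members was 17, and 16 to 23 over these refits. The count of higher members was 2. It was 4 with upper-quartile factors, 0 scaled to pan-neuronal genes, 1 with the replicate block, 0 at an adjusted p under 0.01, and 0 to 3 with a library left out. The members' median of -0.30 was -0.27 with upper-quartile factors, -0.51 scaled to pan-neuronal genes (all genes -0.22) and -0.32 to -0.26 with a library left out. Partner genes called higher numbered 1, 0 scaled to pan-neuronal genes and 0 to 1 with a library left out. Over all genes 1970 were higher, 581 scaled to pan-neuronal genes and 1208 to 2470 with a library left out (1208 without topotecan replicate 1 and 1260 without topotecan replicate 2), and 59.2% of calls were lower, 87.4% with that scaling. The cause of these shifts was not tested.

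Some uncalled members changed sign in some refits. Scaled to pan-neuronal genes the values were -0.06 for Kcna4, -0.19 for Kcnb2, -0.20 for Kcnd1, -0.11 for Kcnh6, -0.06 for Kcnk13, -0.17 for Kcnn3, -0.05 for Kcns1 and -0.13 for Kcnv1. Kcnd1 was at -0.0047 with the replicate block and -0.02 with limma-voom. Kcns2 was at 0.01 with DESeq2's factors, 0.03 with upper-quartile factors, 0.01 without a filter, 0.01 with the replicate block and 0.04 with limma-voom. With a library left out the values ran from -0.01 to 0.35 for Kcna4, from -0.04 to 0.72 for Kcna7, from -1.41 to 1.08 for Kcnab3, from -0.09 to 0.15 for Kcnb2, from -0.28 to 0.28 for Kcnd1, from -0.16 to 0.43 for Kcnh6, from -0.54 to 0.02 for Kcnk4, from -0.46 to 0.22 for Kcnmb2, from -0.27 to 0.31 for Kcnn3, from -0.26 to 0.52 for Kcns1, from -0.28 to 0.33 for Kcns2, from -0.01 to 0.20 for Kcnv1.

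No effect shared by libraries of the same replicate number was seen across genes, which cannot tell whether they were prepared in pairs. The differences of replicate 1 and 2 correlated at -0.03 between treatments, across genes. The block moved the lower members from 17 to 16. Depth limits the members under 3 CPM.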
